A study of Mus musculus with 6 samples.

Results

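The genes described here encode the subunits of the mitochondrial respiratory chain and the ATP synthase. They were chosen by symbol: Nduf genes of the a, b, c, s and v series, Sdha to Sdhd, Uqcr genes, Cox genes of subunits 4 to 8, Atp5 genes, and the protein-coding genes of the mitochondrial genome. The rule found 92 of the 49452 genes in the table, 79 encoded in the nucleus and 13 encoded in mitochondria. The mitochondrial genes carried symbols such as ND1, COX1 and CYTB in the table and were matched by Ensembl gene ID, and they are given here by their mouse names (mt-Nd1, mt-Co1, mt-Cytb). Of the 79 nuclear genes 76 were subunits. Atp5s and Atp5sl are named like subunits but are not part of the enzyme, and a second row labelled Ndufa13 carried an Ensembl ID that belongs to another gene. No gene of Cox subunit 4 matched the rule. Cox4i1 was not analysed here, and Cox4i2 is given with the subunits outside the rule.

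RNA was measured in the ectoderm of forelimb buds of mouse embryos at E10.5, the epithelium that covers the limb bud and forms its apical ridge. Sp8 null ectoderm came from 3 embryos and wild-type ectoderm from 3, and each library held the ectoderm of both forelimbs of a single embryo, peeled off with forceps after trypsin. Sp8 is a zinc-finger transcription factor of that ectoderm. Null embryos came from heterozygous parents carrying an Sp8 allele that the labels call Sp8-Cre-ERT2, whereas wild-type embryos came from separate C57BL/6 crosses and were not littermates of the nulls. The labels do not say how the allele was built, its name includes the Cre-ERT2 that wild type lacked, and all embryos were labelled C57BL6J. In bulk tissue, fewer cells of a type and less RNA per cell cannot be told apart.

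Sp8 itself lay at 0.766, 0.460 and 1.14 FPKM in the null embryos and at 8.35, 10.97 and 13.5 FPKM in wild type, where FPKM counts fragments per kilobase of transcript relative to all mapped fragments of a library. Read totals were not given in the sources used here. From the steps between the lowest FPKM values, depth relative to wild-type embryo 1 was 0.842 to 1.03 in the other libraries. All 10 ectoderm markers reached 1 FPKM in at least 1 library, with summed levels of 486 to 588 FPKM in null and 571 to 613 FPKM in wild type. The lowest sum was that of null embryo 2. Of these markers 6 were lower in null and 4 higher. Epcam lay at 65.9 to 87.7 FPKM in null and at 106 to 118 FPKM in wild type. Tfap2a stood the other way, at 46.4 to 56.85 FPKM in null and at 33.8 to 37.4 FPKM in wild type. Limb mesenchyme markers summed to 93.3, 169 and 86.4 FPKM in null embryos 1, 2 and 3 and to 92.3 to 128 FPKM in wild type. Prrx1, the leading limb mesenchyme factor, stood at 53.3 FPKM in null embryo 2 and at 3.92 to 16.5 FPKM in the other libraries. Single markers differed in direction, with 5 of 10 tested lower in null and 5 higher. Msx1 lay at 2.28 to 3.19 FPKM in null and at 6.07 to 8.91 FPKM in wild type. Lmx1b lay at 11.55 to 17.7 FPKM in null and at 5.16 to 7.34 FPKM in wild type. In null embryo 2 Meis1, at 29.2 FPKM, was the lowest of the 6 libraries. Pdgfra, at 19.55 FPKM in that embryo, lay below every wild-type embryo. No single endothelial marker passed 3.16 FPKM and no macrophage marker passed 1.22 FPKM. Erythroid markers summed to 429 FPKM in wild-type embryo 1 and to 11.8 to 165 FPKM in the other 5 libraries.

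The respiratory chain sits in the inner mitochondrial membrane. Complex I (NADH dehydrogenase) and complex II (succinate dehydrogenase) feed electrons through complex III to complex IV, which reduces oxygen, and the proton gradient made on the way drives ATP synthesis by complex V. Most subunits are nuclear and are imported as proteins, while a few core subunits of complexes I, III, IV and V are made inside the organelle from long polycistronic transcripts of its own genome. NRF1, the ETS factor GABP and YY1 are the textbook regulators of the nuclear genes.

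The promoters of 4 nuclear members are shown as examples and do not stand for the whole set. Each run is 300 bases from RefSeq (GRCm38.p6), mostly before the annotated start, on the strand of the gene. Capitals mark matches on either strand to the NRF1 motif, CCGGAAG (ETS), AAGATGGC (YY1) or GGGCGG (GC box). The first match in Sdhd shows the letters of the NRF1 motif, which allows any base directly after its A. Cox6b2 (chr7:4753045-4753344, minus strand) is shown because it was the member that passed the test. Sdhd (chr9:50603800-50604099, minus strand), Uqcr11 (chr10:80406772-80407071, minus strand) and Atp5j2 (chr5:145191492-145191791, minus strand) are shown for complexes II, III and V, as the members with the smallest p among those with an entry.
Cox6b2: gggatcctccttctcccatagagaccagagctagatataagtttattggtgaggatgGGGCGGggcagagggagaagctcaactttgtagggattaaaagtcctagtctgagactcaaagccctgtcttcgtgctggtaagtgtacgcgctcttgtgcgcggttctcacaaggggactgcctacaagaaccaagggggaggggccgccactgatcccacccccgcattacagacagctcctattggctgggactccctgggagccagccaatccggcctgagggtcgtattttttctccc
Sdhd: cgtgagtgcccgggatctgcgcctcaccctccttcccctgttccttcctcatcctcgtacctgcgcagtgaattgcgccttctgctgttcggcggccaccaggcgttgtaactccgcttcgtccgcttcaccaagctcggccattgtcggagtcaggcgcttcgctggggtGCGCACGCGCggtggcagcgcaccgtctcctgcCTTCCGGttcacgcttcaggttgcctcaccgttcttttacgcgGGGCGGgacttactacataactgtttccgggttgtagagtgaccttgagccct
Uqcr11: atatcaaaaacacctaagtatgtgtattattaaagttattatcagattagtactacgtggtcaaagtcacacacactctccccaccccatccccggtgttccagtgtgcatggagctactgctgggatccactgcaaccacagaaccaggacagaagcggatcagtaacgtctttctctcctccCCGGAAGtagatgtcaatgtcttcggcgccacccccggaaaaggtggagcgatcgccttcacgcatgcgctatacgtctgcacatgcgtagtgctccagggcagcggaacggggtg
Atp5j2: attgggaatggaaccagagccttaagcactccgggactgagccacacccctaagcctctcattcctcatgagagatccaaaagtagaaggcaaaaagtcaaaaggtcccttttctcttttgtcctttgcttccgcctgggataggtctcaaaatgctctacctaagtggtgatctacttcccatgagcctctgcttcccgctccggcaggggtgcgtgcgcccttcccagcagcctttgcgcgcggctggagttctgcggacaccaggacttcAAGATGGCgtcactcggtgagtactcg
The Cox6b2 window holds a GC box and none of the other motifs. Sdhd holds NRF1, ETS and GC-box matches, Uqcr11 an ETS match, and Atp5j2 a YY1 match. Not every member had a match. The windows of Ndufb10 and Cox5b, which are not printed, hold none of these motifs, and neither do those of Cox7c and Ndufa4. Over the 63 nuclear members with a RefSeq promoter, the NRF1 motif was present in 22.2%, against 6.6% of 17492 promoters of protein-coding genes. The ETS motif was in 23.8% against 11.9%, the YY1 motif in 12.7% against 3.22%, and the GC box in 38.1% against 46.3%. A match is a description of these letters and does not show binding.

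Copies of mitochondrial DNA in the nuclear genome share sequence with the mitochondrial members, and this set how far their values could be read. The first 100 aligned bases of mt-Co3 (mitochondrial genome, 8607 to 9390) and of its annotated nuclear copy Gm28437 on chromosome 1 (24613189 to 24613971, minus strand) show a pair with no difference. The first 100 aligned bases of mt-Cytb (14145 to 15288) and of Gm11410 on chromosome 4 (80003989 to 80005131) show a diverged pair, with the 5 differing bases in capitals. All are in the GRCm38 build.
mt-Co3: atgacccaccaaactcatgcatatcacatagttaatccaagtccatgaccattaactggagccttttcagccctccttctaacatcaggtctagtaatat
Gm28437: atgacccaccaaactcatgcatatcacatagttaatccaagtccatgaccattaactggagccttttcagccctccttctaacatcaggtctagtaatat
mt-Cytb: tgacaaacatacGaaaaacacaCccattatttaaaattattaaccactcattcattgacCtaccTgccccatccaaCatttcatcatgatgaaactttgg
Gm11410: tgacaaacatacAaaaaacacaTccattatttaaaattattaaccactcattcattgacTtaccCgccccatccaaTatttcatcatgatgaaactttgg
Over the full alignments mt-Co3 and Gm28437 were identical along 783 bases, and mt-Cytb and Gm11410 were 92.9% identical. For mt-Co2, mt-Co3, mt-Atp6, mt-Nd4l and mt-Nd3, nearly all 50-base windows also occurred in another annotated transcript, from 98% for mt-Nd3 to every window of mt-Co2. These 5 genes lay at 0.0448 to 31.5 FPKM, whereas the 8 others lay at 151 to 3893 FPKM in every library. Sharing did not go with a low level throughout: mt-Nd4 shared 62.2% of its windows and mt-Co1 51.1%, and they lay at 378 to 770 and at 1809 to 3172 FPKM. The windows were searched in annotated transcripts only, so reads shared with unannotated copies are not counted. How the authors treated reads with more than a single match is not given in the sources used here, and the levels of these 5 genes are therefore uncertain.

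Each gene was compared between genotypes as log2(FPKM + 1) with limma, and p-values were adjusted (Benjamini-Hochberg) across the 12133 genes that reached 1 FPKM in at least 3 libraries. A gene is called at an adjusted p under 0.05. Of the members, 73 nuclear and 12 mitochondrial genes entered the test. The 6 nuclear genes left out stayed at or below 1.18 FPKM, and mt-Co3 stayed below 1 FPKM.

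Most nuclear subunits had slightly lower mRNA levels in Sp8 null ectoderm, but a single gene passed the test, and that gene was higher. It was Cox6b2, 1 of 73, where 6.83% of all tested genes were called (5.15% lower and 1.68% higher in null). Of the 73 nuclear members 61 had a log2 fold change below 0, against 61.3% of all tested genes, so 83.6% of members lay below 0. The count was 55 with median-of-ratios scaling, 50 with upper-quartile scaling and 55 with an equal sum over non-mitochondrial genes, where 48.9%, 44.4% and 49.3% of all genes lay below 0. The median log2 fold change was -0.15 over nuclear members and -0.06 over all tested genes, a gap of -0.10, and the gap ranged from -0.07 to -0.15 over the alternatives. Because 1 was added to FPKM before logs, changes of low genes come out smaller than they are. The tested nuclear members ran from -0.36 (Uqcrq) to 0.64 (Cox6b2). Null embryo 2 had the lowest value of the 6 libraries for 35 of the 73 nuclear members, against 2917 of the 12133 tested genes. It also had the highest summed mesenchyme markers and the lowest summed ectoderm markers. Without null embryo 2 the nuclear median was -0.13 and the gap to all genes -0.07. The part of the mesenchyme or ectoderm markers in the difference was not tested.

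At an unadjusted p under 0.05, 19 nuclear members were lower and 2 were higher, where 17.5% of all tested genes were lower and 6.5% higher, or 24.0% in either direction. The null and wild-type values did not overlap for 23 nuclear members, 20 of them with all null embryos below all wild-type embryos and 3 with all null embryos above, against 21.1% and 8.63% of all tested genes, or 29.8% in either direction. In the authors' deposited table, 23 nuclear members were lower and 4 higher at their p under 0.05, against 20.0% and 11.3% of all tested genes. The members' shares were not tested against the shares over all genes.

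**Figure D1:**
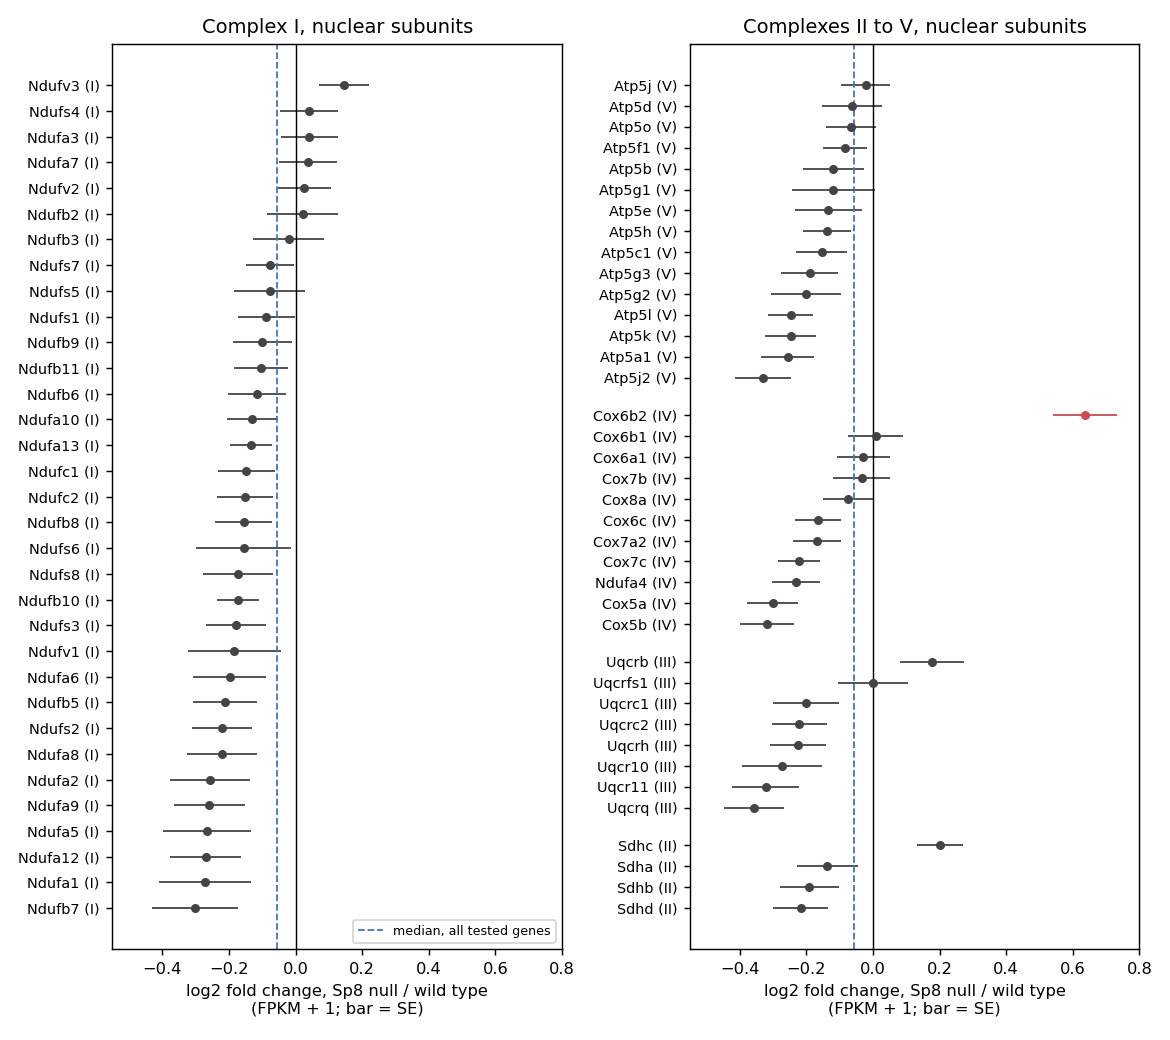
Log2 fold change (Sp8 null over wild type, of FPKM + 1) with its standard error for the tested nuclear subunits, complex I on the left and complexes II to V on the right. Most points lie between the dashed line, the median of all tested genes at -0.06, and -0.36, and the red point, Cox6b2 at 0.64, is the only called member.

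Complex I had 33 nuclear members, the accessory and core subunits of the NADH dehydrogenase, all of them tested. None was called, 27 had a log2 fold change below 0, and the median was -0.15, with a range from -0.30 (Ndufb7) to 0.15 (Ndufv3). Ndufb9, the nuclear complex I mRNA with the highest level, lay at 107, 111 and 117 FPKM in null and at 124, 130 and 106 FPKM in wild type. The groups overlapped, since wild-type embryo 3 had the lowest value of all. Its log2 fold change was -0.10 with a standard error of 0.09 and an adjusted p of 0.541 by limma, and 23.4% of its 50-base windows occurred in other transcripts.

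Ndufb10, a small accessory subunit, had the smallest p of complex I. Its levels were 22.8, 23.5 and 24.2 FPKM in null and 26.4, 26.6 and 26.7 FPKM in wild type. All null embryos lay below all wild-type embryos, and the wild-type values were nearly equal. The log2 fold change was -0.17 (SE 0.06), and the limma adjusted p of 0.148 missed the threshold. Ndufv3, an accessory subunit of the NADH-oxidizing module, was the complex I member with all null embryos above wild type, at 19.8, 19.1 and 19.0 against 18.8, 16.8 and 16.6 FPKM (adjusted p 0.293 by limma, chosen after its values were seen).

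Complex II is encoded wholly in the nucleus, and its 4 subunits did not all point the same way. Sdha, the flavoprotein that oxidizes succinate, had the highest level, with 53.9, 60.2 and 62.6 FPKM in null and 64.6, 70.9 and 59.1 FPKM in wild type. The groups overlapped, and its log2 fold change was -0.14 (SE 0.09, limma adjusted p 0.415). Sdhc, a membrane anchor that holds heme and binds ubiquinone, lay at 54.7, 51.0 and 57.4 FPKM in null and at 48.5, 47.0 and 45.8 FPKM in wild type. Every null embryo was above every wild-type embryo.

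The log2 fold change of Sdhc was 0.20 (SE 0.07) with a limma adjusted p of 0.129, so it was not called. It was called with a different scaling of the libraries, at adjusted p 0.0362 with median-of-ratios factors, 0.0224 with upper quartiles and 0.0372 with an equal non-mitochondrial sum, and at 0.0318 when the trend on transcript length was removed. Its partner anchor Sdhd stood the other way, with 44.6, 41.5 and 44.3 FPKM in null and 50.2, 55.7 and 46.5 FPKM in wild type (log2 fold change -0.22, SE 0.08, limma adjusted p 0.161, chosen after its values were seen). No null value of Sdhd reached the lowest wild-type value. The iron-sulfur subunit Sdhb stood at 18.03 to 21.2 FPKM in null and 20.8 to 23.8 FPKM in wild type, with a small overlap.

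Complex III, the cytochrome bc1 complex, had the lowest median of the 5 complexes, -0.22 over 8 nuclear members, of which 6 lay below 0 and none was called. Uqcrh, the hinge protein that docks cytochrome c, was its most abundant mRNA, at 134, 132 and 132 FPKM in null and 166, 163 and 138 FPKM in wild type. The null embryos were close together and all lay below wild type (log2 fold change -0.22, SE 0.08, limma adjusted p 0.156). Uqcrq, a small accessory subunit, had 55.9, 44.7 and 51.6 FPKM in null and 65.1, 67.6 and 62.3 FPKM in wild type. The groups did not overlap, and the difference of -22.0% relative to the wild-type mean FPKM was the lowest among the tested nuclear members. Its log2 fold change was -0.36 (SE 0.09) and its limma adjusted p of 0.0605 missed the threshold, as it did in all 17 alternatives (0.0579 to 0.201). Uqcrb stood above wild type on average (log2 fold change 0.18, limma adjusted p 0.312), with overlapping groups and 43.4% of its windows shared with other transcripts.

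Complex IV, cytochrome c oxidase, had 16 nuclear members including Ndufa4, which was first assigned to complex I and is now counted here. Of its 11 tested members 9 lay below 0, with a median of -0.17. Cox7c, a small structural subunit with the highest level, lay at 344, 322 and 343 FPKM in null and at 400, 399 and 378 FPKM in wild type. The groups did not overlap, and the log2 fold change was -0.22 (SE 0.06, limma adjusted p 0.0842). Of its 50-base windows 27.9% occurred in other transcripts.

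Cox6b2 (ENSMUSG00000051811, chromosome 7, 4751792 to 4753094, minus strand, GRCm38) encodes the isoform of subunit 6B best known from testis. Its levels were 16.1, 18.01 and 16.6 FPKM in null and 9.48, 10.3 and 11.8 FPKM in wild type. All null embryos were above all wild-type embryos, and the mean rose by 60.3% from 10.54 ± 1.18 to 16.9 ± 0.998 FPKM (SD, n = 3 in each group). The log2 fold change was 0.64 (SE 0.10) with a limma adjusted p of 0.0107. The authors' deposited table gave a fold of 1.53 with p 2.7e-05. The call held in 16 of 17 alternatives (adjusted p 0.00864 to 0.0753) and was lost only among the 4 libraries whose sample names start with 5, at 0.0753. No 50-base window of Cox6b2 occurred in another transcript.

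The widely expressed partner isoform Cox6b1 did not share this difference. It stood at 162, 134 and 154 FPKM in null and at 149, 149 and 147 FPKM in wild type. The groups overlapped, and the log2 fold change of 0.01 (SE 0.08, limma adjusted p 0.965) turned negative when null embryo 1 or null embryo 3 was left out. Cox6b2 was thus the minor isoform by level in all 6 libraries.

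In the other isoform sets compared within complex IV, a single form of each set carried nearly all of the mRNA. Cox6a1, the form of most tissues, lay at 118 to 140 FPKM in null and 128 to 138 FPKM in wild type, while its muscle form Cox6a2 was listed at 0 in all 6 libraries. Cox7a2 lay at 57.6 to 65.1 FPKM in null and 65.1 to 71.3 FPKM in wild type, and the muscle form Cox7a1 reached at most 0.477 FPKM. The related Cox7a2l, known for joining complexes III and IV and outside the symbol rule, stood higher than Cox7a2 in every library, at 88.7 to 100.8 FPKM. Cox7b lay at 107 to 131 FPKM in null and 122.9 to 125 FPKM in wild type, and Cox7b2 was listed above 0 in wild-type embryo 1 only, at 0.0682 FPKM. Cox8a lay at 89.4 to 105.2 FPKM in null and 99.8 to 103 FPKM in wild type, and both Cox8b and Cox8c were listed at 0 throughout. None of these 4 main forms was called (limma adjusted p 0.213 to 0.863), and the signs of Cox6a1, Cox7b and Cox8a changed with the scaling of the libraries.

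Cox5a and Cox5b, nuclear subunits on the matrix side of the complex, were chosen after their values were seen because they came closest to a call among the lower genes of complex IV. Cox5b lay at 265, 284 and 256 FPKM in null and at 339, 359 and 307 FPKM in wild type. Cox5a lay at 23.5, 24.5 and 27.1 FPKM in null and at 31.5, 31.9 and 29.8 FPKM in wild type. Neither gene's groups overlapped, with log2 fold changes of -0.32 (SE 0.08, limma adjusted p 0.0594) for Cox5b and -0.30 (SE 0.08, limma adjusted p 0.0597) for Cox5a. Other transcripts contained 25.9% of the windows of Cox5b and 32.0% of those of Cox5a, and Cox5a was called without null embryo 3 (adjusted p 0.0493).

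Complex V, the ATP synthase, had 15 tested nuclear members, all with a log2 fold change below 0 where 61.3% of all tested genes lay below 0, and none was called. With another scaling 12 (median-of-ratios and equal-sum) or 11 (upper-quartile) of the 15 lay below 0, and 13 did without null embryo 2, which had the lowest level for 11 of the 15. Its median was -0.14 and its range ran from -0.33 (Atp5j2) to -0.02 (Atp5j). Atp5b, the catalytic beta subunit, had the highest level of all nuclear members, at 1783, 1723 and 1994 FPKM in null and 2008, 2104 and 1857 FPKM in wild type. The groups overlapped (log2 fold change -0.12, SE 0.09, limma adjusted p 0.479). Atp5j2, the membrane subunit f, lay at 54.7, 46.5 and 53.2 FPKM in null and at 67.6, 66.4 and 60.5 FPKM in wild type. Every null embryo lay below every wild-type embryo, and its log2 fold change was -0.33 (SE 0.08, limma adjusted p 0.0609).

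The genes Atp5g1, Atp5g2 and Atp5g3 encode the same mature c subunit of the proton-driven rotor with different import sequences. Atp5g3 was the most abundant, at 144, 132 and 150 FPKM in null and 170, 170 and 147 FPKM in wild type. Atp5g1 followed at 104.9, 76.9 and 92.1 FPKM in null and 88.4, 100.8 and 107 FPKM in wild type. Atp5g2 was the least abundant, at 41.9, 34.4 and 38.0 FPKM in null and 38.8, 45.1 and 48.0 FPKM in wild type. The order was the same in all 6 libraries, and for each gene the genotypes overlapped (log2 fold changes -0.19, -0.12 and -0.20, limma adjusted p 0.221, 0.609 and 0.295).

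**Figure D2:**
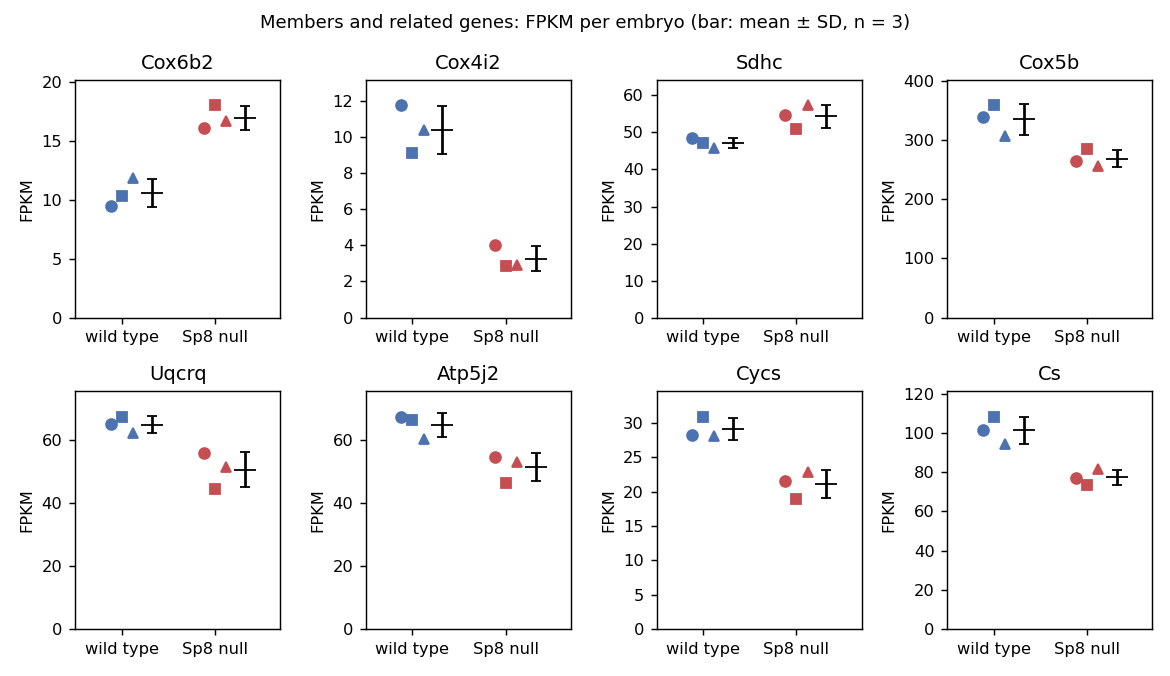
FPKM of 8 genes in each embryo (circle, square and triangle for embryos 1, 2 and 3), with the mean and SD (n = 3) beside each group. Cox6b2 is higher in null, at 16.1 to 18.01 against 9.48 to 11.8 in wild type, Cox4i2 is lower, at 2.86 to 4.04 against 9.09 to 11.7, and the groups do not overlap in any of the 8 genes, of which Sdhc, Cox5b, Uqcrq and Atp5j2 were not called.

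Among the 13 mitochondrially encoded members none was called, of 12 tested, where 6.83% of all tested genes were called. None had an unadjusted limma p under 0.05 either, and the groups overlapped for every mitochondrial member. The median log2 fold change was -0.14, against -0.15 for the nuclear members and -0.06 for all tested genes. Without wild-type embryo 3 the median was 0.02, and without wild-type embryo 1 it was -0.36. The smallest adjusted p was 0.222, for mt-Nd1.

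The complex I members mt-Nd1 and mt-Nd2 encode membrane subunits of the proton-pumping arm. Levels of mt-Nd1 were 2185, 1997 and 2040 FPKM in null and 2094, 2661 and 3070 FPKM in wild type. Levels of mt-Nd2 were 571, 485 and 493 FPKM in null and 437, 605 and 696 FPKM in wild type. In both, wild-type embryo 3 was highest, and the wild-type embryos spread more widely than the null embryos. The log2 fold changes were -0.31 (SE 0.14) and -0.14 (SE 0.17), with limma adjusted p of 0.222 and 0.644.

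The proton-pumping subunits mt-Nd4 and mt-Nd5 and the light-strand gene mt-Nd6 gave the same picture. For mt-Nd4 the values were 546, 472 and 515 FPKM in null and 378, 595 and 770 FPKM in wild type, and for mt-Nd5 they were 550, 528 and 581 FPKM in null and 412, 712 and 893 FPKM in wild type. For mt-Nd6 they were 208, 208 and 218 FPKM in null and 151, 311 and 343 FPKM in wild type. In each of the 3 genes the null embryos fell between wild-type embryo 1 and wild-type embryo 2. The limma adjusted p was 0.776 for mt-Nd4, 0.655 for mt-Nd5 and 0.623 for mt-Nd6, and mt-Nd6 was called without wild-type embryo 1 (log2 fold change -0.62, adjusted p 0.012).

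The sole mitochondrial subunit of complex III, mt-Cytb, carries the ubiquinone sites of the complex and lay at 1680, 1536 and 1701 FPKM in null and at 1188, 1956 and 2297 FPKM in wild type. The catalytic subunit of complex IV, mt-Co1, lay at 2376, 2213 and 2528 FPKM in null and at 1809, 2853 and 3172 FPKM in wild type. For both genes all null embryos again fell between wild-type embryo 1 and the other two wild-type embryos (limma adjusted p 0.832 and 0.8). The complex V gene mt-Atp8, at 3594, 3497 and 3893 FPKM in null and 3340, 3747 and 3808 FPKM in wild type, had the highest mean FPKM of these 8 genes and the smallest standard error (log2 fold change 0.01, SE 0.09, adjusted p 0.952 by limma). Its coding sequence spans only 204 bases, and in the authors' deposited table, whose signal lies on the scale of read counts, its wild-type mean of 2985 was the lowest of the 8, against 143548 for mt-Co1. Its rank by FPKM is therefore uncertain.

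The 5 members with near-identical nuclear copies lay far lower. Levels of mt-Atp6, whose coding sequence overlaps that of mt-Atp8, were 9.76, 9.0 and 7.57 FPKM in null and 9.57, 9.68 and 9.35 FPKM in wild type. Levels of mt-Nd3 were 9.24, 8.29 and 6.55 FPKM in null and 9.28, 11.9 and 8.08 FPKM in wild type, and those of mt-Nd4l were 3.76, 2.98 and 3.58 FPKM in null and 1.94, 4.34 and 3.45 FPKM in wild type. Neighbours on the same polycistronic transcript, such as mt-Atp8 at 3340 FPKM or more and mt-Atp6 at 9.76 FPKM or less, were thus listed at very different levels.

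Levels of mt-Co2 were 5.13, 4.35 and 4.68 FPKM in null and 4.54, 7.24 and 31.5 FPKM in wild type, so wild-type embryo 3 alone stood apart. Its log2 fold change of -0.998 (SE 0.57, limma adjusted p 0.34) rested on that embryo. Without it the value was -0.24. Levels of mt-Co3 were 0.0448 to 0.238 FPKM, and the annotated copy Gm28437 was listed at 0 to 0.0397 FPKM. The nuclear copy Gm28661 of mt-Co2 was listed at 0 to 1.94 FPKM.

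**Figure D3:**
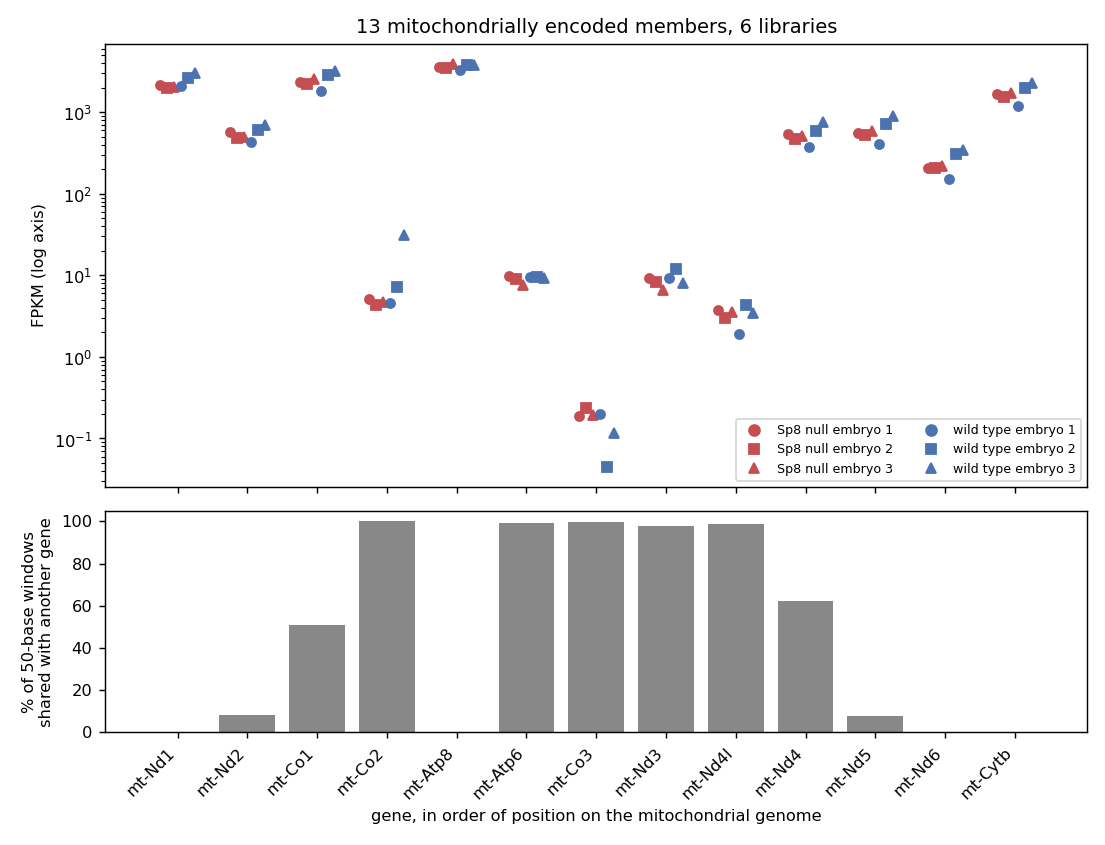
Top, FPKM (log axis) of the 13 mitochondrial members in 6 libraries, in order of position on the mitochondrial genome, and bottom, percentage of each gene's 50-base windows that occur in another annotated transcript. The 5 genes with nearly all windows shared lie at 0.0448 to 31.5 FPKM, and the other 8 lie at 151 to 3893 FPKM.

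Nuclear and mitochondrial members varied differently among the libraries. Deviation was taken per gene from its mean log2(FPKM + 1) over the 6 libraries. For the 8 mitochondrial members with a mean of at least 100 FPKM, the median deviation was -0.47, 0.21 and 0.42 in wild-type embryos 1, 2 and 3, and -0.03, -0.15 and -0.04 in the null embryos. For the nuclear members it was 0.12, 0.12 and -0.03 in wild-type embryos 1, 2 and 3, and -0.07, -0.14 and -0.03 in the null embryos. Among the wild-type embryos, embryo 1 was therefore lowest and embryo 3 highest for mitochondrial members, while embryo 3 was lowest for nuclear members.

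Wild-type embryo 1 had the lowest wild-type value for 10 of the 12 tested mitochondrial members, and wild-type embryo 3 the highest for 9. Wild-type embryo 3 had the lowest wild-type value for 60 of the 73 tested nuclear members (82.2%) and for 52.4% of all tested genes. The median deviations of all tested genes were 0.07, 0.05 and -0.02 in wild-type embryos 1, 2 and 3, so embryo 3 was lowest there too. Wild-type embryo 1 also had the highest summed erythroid markers, 429 FPKM, where the sums of wild-type embryos 2 and 3 were 36.7 and 11.8 FPKM, led by the embryonic globin Hbb-y, and the part of this in the mitochondrial levels was not tested.

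**Figure D4:**
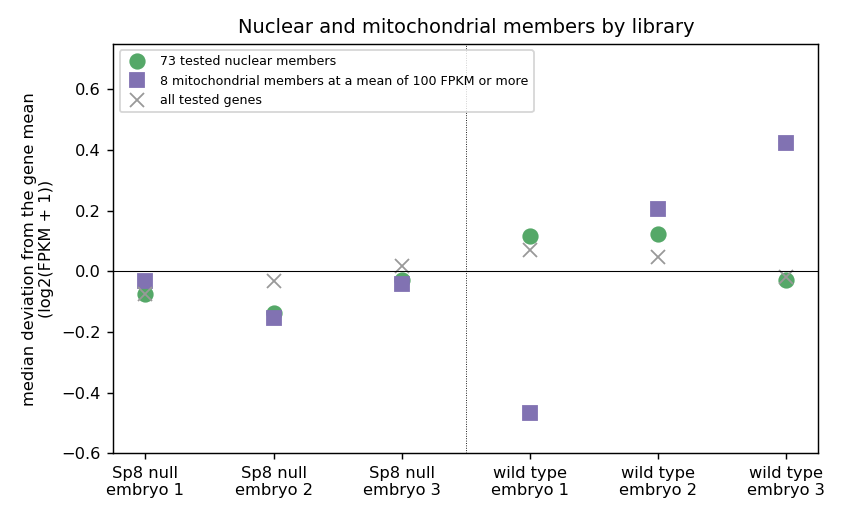
Median deviation of log2(FPKM + 1) from the gene mean in each library, for the tested nuclear members, the 8 mitochondrial members at a mean of 100 FPKM or more, and all tested genes. The mitochondrial medians run from -0.47 to 0.42 over the wild-type embryos and from -0.15 to -0.03 over the null embryos.

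Summed over genes, the 76 nuclear subunits came to 6642, 6308 and 6890 FPKM in null and to 7494, 7656 and 6848 FPKM in wild type. The same 8 mitochondrial members summed to 11710, 10940 and 11970 FPKM in null and to 9811, 13440 and 15050 FPKM in wild type. The ratio of the mitochondrial to the nuclear sum was 1.76, 1.73 and 1.74 in null and 1.31, 1.76 and 2.2 in wild type. Its mean was 1.74 ± 0.0153 in null and 1.76 ± 0.445 in wild type (SD, n = 3 each), so the wild-type embryos enclosed all null embryos. Of the mitochondrial sum mt-Atp8 made up 25.3% to 34.0%, and without it, a choice made after seeing the data, the ratio was 1.22, 1.18 and 1.17 in null and 0.863, 1.27 and 1.64 in wild type. Because the sources do not say how the poly(A) selection treated mitochondrial mRNA, the ratio compares libraries and is not a molar ratio of subunits.

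Other genes of the pathway were grouped in lists by role. The subunits and carriers that the symbol rule left out held the largest difference. Cox4i2, the isoform of complex IV subunit 4 best known from lung, lay at 4.04, 2.86 and 2.91 FPKM in null and at 11.7, 9.09 and 10.4 FPKM in wild type. The groups were far apart, the log2 fold change was -1.42 (SE 0.14, limma adjusted p 0.00153), and the authors' deposited table gave a fold of -2.67. The call held in all 17 alternatives (adjusted p 0.000807 to 0.0184). Cycs, the soluble cytochrome c that carries electrons from complex III to complex IV, also fell, from 28.2, 31.0 and 28.2 FPKM in wild type to 21.6, 19.0 and 22.9 FPKM in null (log2 fold change -0.45, SE 0.09, limma adjusted p 0.0289), and this call was lost in 9 of 17 alternatives (adjusted p up to 0.144). These 2 were the only ones called of 7 tested, where 6.83% of all tested genes were called. Cyc1, the heme protein of complex III, was not called (log2 fold change -0.14, limma adjusted p 0.482).

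Of 41 tested assembly factors, 2 fell and none rose, where 5.15% of all tested genes fell, so this count is at the background. Ndufaf4 (log2 fold change -0.62) and Ndufaf2 (log2 fold change -0.41), both needed to build complex I, shared a limma adjusted p of 0.0366 and lost the call in 10 and 8 of 17 alternatives. The list had a median of -0.12. Of 17 citric acid cycle genes 3 fell and none rose, against 5.15% of all tested genes lower and 1.68% higher, and the list's median was -0.16 against -0.06 over all tested genes. These were Suclg2, a subunit of succinyl-CoA synthetase (log2 fold change -0.55, limma adjusted p 0.0122, lost in 2 alternatives), Cs, citrate synthase (-0.39, 0.0273, lost in 8), and Idh3a, a subunit of isocitrate dehydrogenase (-0.51, 0.0499, lost in 14).

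Among genes that keep, transcribe and process mitochondrial DNA and RNA no call was made. Over 16 genes of DNA maintenance and transcription the median was -0.11, and the smallest p belonged to Twnk, the replicative helicase (log2 fold change -0.37, limma adjusted p 0.0501). Twnk was called with a pseudocount of 0.1 (limma adjusted p 0.0471) and with failed estimates left out (limma adjusted p 0.0498). Over 19 genes of RNA processing the median was -0.19, and Lrpprc, which stabilizes mitochondrial mRNA, lay at 13.5, 15.05 and 16.4 FPKM in null and 16.9, 19.2 and 18.2 FPKM in wild type (limma adjusted p 0.14). Of 11 inner membrane carriers none was called, with Slc25a5, an ATP/ADP exchanger, nearest (log2 fold change -0.37, limma adjusted p 0.0604).

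Of 10 tested nuclear regulators of respiratory genes, Myc fell and the others were not called, again with 5.15% of all tested genes lower. Myc lay at 1.44, 2.85 and 1.69 FPKM in null and at 4.11, 4.19 and 4.52 FPKM in wild type (log2 fold change -0.85, SE 0.17, limma adjusted p 0.0314, lost in 8 of 16 alternatives). Nrf1 and Gabpa, whose motifs were counted above, had log2 fold changes of -0.09 and -0.07 (limma adjusted p 0.549 and 0.544). In a list of stress genes linked to mitochondria 4 of 9 tested genes fell, against 5.15% of all tested genes, with a median of -0.28 against -0.06. The members that fell were the matrix chaperonins Hspd1 (-0.51, limma adjusted p 0.0191) and Hspe1 (-0.45, 0.0204), the import-motor chaperone Hspa9 (-0.40, 0.0329) and the matrix protease Clpp (-0.35, 0.0421), and these calls were lost in 6, 7, 8 and 14 of 17 alternatives.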

How the data were processed

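Polyadenylated RNA of 6 libraries was sequenced from TruSeq v2 libraries, per the labels' protocols. The authors deposited FPKM per gene and library, with a status for every value. Ensembl 87 supplied the gene models per the file headers, and the submitters' processing notes name GRCm38, FastQC, SAMtools, TopHat2, Cufflinks and DESeq2 without roles or versions. Which tool made which value, strand use and handling of multiply mapped reads are not given in the sources used here. The authors' deposited table also holds, per gene, group means as a normalized signal, a fold written as a signed score, and a p-value of unstated test and adjustment.

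FPKM is not a count, so limma 3.58.1 (R 4.3.3) was run on log2(FPKM + 1) with genotype as its single term and an empirical Bayes trend. Genes entered when 3 or more libraries reached 1 FPKM. P-values were two-sided and adjusted by Benjamini-Hochberg over 12133 genes. Replicates were separate embryos. The fit was tested on simulated data. All per-sample columns belonged to these 6 libraries. Shared 50-base windows and alignments came from GENCODE M21 transcripts and blastn 2.17.0, and promoters from RefSeq. No member had a failed or low-data status. Every member was summarised. Values per library were given for called members, mitochondrial members, the highest and the smallest-p member of each complex, and isoform families. Of the other lists, called members and at most 2 with the smallest p were named, and Sdhb, Uqcrb, Cyc1, Nrf1, Gabpa, Cox7a2l, Prrx1, Ndufa11, Ndufb4 and the mitochondrial ribosomal RNAs, with those marked in the text, were chosen after their values were seen. The members and lists were chosen with earlier results of these data known. Alternatives changed the scaling, pseudocount, filter, covariate, failed estimates, length trend or libraries used.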

Additional observations from a re-analysis of the deposited data

How the results depend on the processing

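Over 17 alternatives, the 64 named genes gave 1085 values, of which 956 kept their direction and side of the threshold, 95 lost a call, 9 gained a call and 25 changed sign. The number of all tested genes called, 829, became 342 with no filter, 545 with the first digit of the sample names as covariate and 251 within the 4 libraries whose name starts with 5, an alternative chosen after seeing the data, and 316 to 642 with each embryo left out. Calls that were higher in null made up 24.6% of calls, and 37.2%, 41.7%, 36.7% and 36.6% with median-of-ratios, upper-quartile, equal-sum scaling and the length trend removed. Called nuclear members, 1, became 2 under each of those 4 settings, 0 within the libraries starting with 5, and 1 to 3 with each embryo left out, with 2 without null embryo 3 and 3 without wild-type embryo 3. Called mitochondrial members, 0, became 0 to 1 with each embryo left out. The nuclear median of -0.15 moved to -0.082, -0.058 and -0.081 with median-of-ratios scaling, upper-quartile scaling and the length trend removed, where the median of all genes moved to 0.006, 0.026 and 0.003. Embryo numbers only name samples, and same-numbered embryos did not deviate together (correlations -0.164, -0.145 and -0.0699), and with embryo number as a replicate block 328 genes, 1 nuclear member and 0 mitochondrial members were called. Signs changed mostly at values near 0. Under the 4 settings above Cox6a1 became 0.044, 0.068, 0.041 and 0.038 and Cox7b 0.039, 0.063, 0.036 and 0.045, and with upper quartiles Cox8a became 0.02 and mt-Cytb 0.003. Within the libraries starting with 5, Cox6b1 became -0.046, mt-Atp8 -0.034 and mt-Nd4l -0.192. With each embryo left out, Cox6a1 ranged from -0.083 to 0.042, Cox6b1 from -0.051 to 0.088, Cox7b from -0.089 to 0.057, mt-Atp8 from -0.046 to 0.048 and mt-Nd4l from -0.14 to 0.291. With wild-type embryo 1 or wild-type embryo 3 left out, mt-Co1 was -0.345 or 0.06, mt-Cytb -0.372 or 0.103, mt-Nd2 -0.333 or 0.002, mt-Nd4 -0.408 or 0.103 and mt-Nd5 -0.527 or 0.029. The cause of these changes was not tested. Read totals and counts were not used here, so counting error could not be separated from the spread between embryos.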

Other observations

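Outside the symbol rule, 2 further complex I genes carried joined labels. Ndufa11 (joined with Gm4943), a membrane subunit, lay at 6.06, 4.77 and 5.90 FPKM in null and at 6.82, 7.71 and 6.67 FPKM in wild type, with no overlap and a limma adjusted p of 0.152. Ndufb4 was joined with Gm3244 and with a further name that is cut off in the label used here. It lay at 10.3, 10.3 and 11.4 FPKM in null and at 11.1, 11.4 and 11.2 FPKM in wild type. The groups overlapped, with a limma adjusted p of 0.616. The reads of the joined genes cannot be told apart.

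The mitochondrial ribosomal RNAs also appeared in these poly(A) libraries. The small-subunit RNA mt-Rnr1 lay at 55210, 49120 and 48960 FPKM in null and at 40020, 49970 and 52510 FPKM in wild type. The large-subunit RNA mt-Rnr2 lay at 64610, 60740 and 62030 FPKM in null and at 54610, 69260 and 69160 FPKM in wild type. Wild-type embryo 1 had the lowest value of both, and neither was called (limma adjusted p 0.73 and 0.928).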
